A study of Mus musculus with 14 samples.

Results

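Claudins and the other core proteins of the tight junction were followed in sorted cells of the embryonic mouse kidney. The members were 9 genes chosen by name from the deposited count tables, out of 55861 gene identifiers in all: the claudins Cldn3, Cldn4, Cldn6, Cldn7, Cldn8 and Cldn10, occludin (Ocln), zonula occludens 1 (Tjp1) and junctional adhesion molecule A (F11r). RNA-Seq read counts were available for 14 libraries. UB dko (4 libraries, E12.5) were ureteric bud cells of HoxB7Cre-GFP;Mek1fl/fl;Mek2-/- embryos, and UB control (4 libraries, E12.5) were ureteric bud cells of HoxB7Cre-GFP;Mek1fl/+ embryos, of which controls 1, 3 and 4 were Mek2+/- and control 2 was Mek2+/+. MM dko (3 libraries, E13.5) were nephron progenitors of the metanephric mesenchyme from Six2-TGC;Mek1fl/fl;Mek2-/- embryos, and MM control (3 libraries, E13.5) were the same cells of Six2-TGC;Mek1fl/+;Mek2+/+ embryos. By these labels all groups carried a Cre and at least 1 floxed Mek1 allele on a mixed C57BL6/Rcc and 129/SvEv background, although the study's methods also list Mek1+/+ among the UB control genotypes and Mek2+/- among those of the MM, and in dko embryos Mek1 was lost only where the Cre is active, whereas Mek2 was lost in the whole embryo. Cells were sorted by GFP, driven in the ureteric bud and collecting ducts by HoxB7Cre-GFP and in nephron progenitors by Six2-TGC, and both kidneys of an embryo made 1 library. Mek1 and Mek2 are the kinases that activate ERK, so dko cells were made to lack MAPK/ERK activity, and dko was compared with control within each tissue.

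Tight junctions seal the space between neighbouring epithelial cells. Claudins span the membrane and pair with claudins of the next cell, and which claudins a cell makes decides which ions pass between the cells. Occludin and F11r lie in the same strands or beside them, and Tjp1 is the scaffold under the membrane that ties them to actin. The ureteric bud is an epithelium throughout development and becomes the collecting duct, whereas nephron progenitors are mesenchymal and build tight junctions only once they turn into epithelium. In mouse collecting duct cells, Cldn8 and Cldn4 act together in the paracellular path for chloride.

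The part of the coding sequence that encodes the claudin signature is shown for the 5 member claudins with counts in the ureteric bud. Claudins outside the members, such as Cldn12, were also expressed there. The 5 genes share the motif and differ in base composition, and base composition tracked with their counts in some libraries. Each window runs from a tryptophan codon to the second cysteine of the first extracellular loop and lies within 1 exon. Capitals mark the codons of glycine, leucine and tryptophan and of the 2 cysteines. Sequences are from GENCODE M21 transcripts on GRCm38, and in the order given they lie at chr16:88562844-88562948 on the minus strand, chr5:134946554-134946658 on the minus strand, chr17:23681151-23681255 on the plus strand, chr11:69966014-69966118 on the plus strand and chr5:134986529-134986633 on the plus strand.
Cldn8: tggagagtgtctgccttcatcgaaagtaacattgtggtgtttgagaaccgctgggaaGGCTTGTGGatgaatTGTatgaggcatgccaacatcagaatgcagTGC
Cldn4: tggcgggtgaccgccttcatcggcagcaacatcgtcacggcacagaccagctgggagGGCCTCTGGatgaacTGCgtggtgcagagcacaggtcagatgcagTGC
Cldn6: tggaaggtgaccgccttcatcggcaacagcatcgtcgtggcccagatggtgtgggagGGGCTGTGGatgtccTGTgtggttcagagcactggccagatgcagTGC
Cldn7: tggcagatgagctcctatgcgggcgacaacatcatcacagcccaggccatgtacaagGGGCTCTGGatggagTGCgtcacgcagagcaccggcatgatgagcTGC
Cldn3: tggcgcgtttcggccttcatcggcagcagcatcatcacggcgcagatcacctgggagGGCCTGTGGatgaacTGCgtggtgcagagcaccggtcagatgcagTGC

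Over these 105 bases the Cldn8 window held 47.6% G and C, against 60.0% to 62.9% in the other 4. The windows of Cldn3 and Cldn4 were the most alike, with 94 of 105 bases identical, and those of Cldn7 and Cldn8 the least alike, with 48. The whole coding sequences of Cldn3 and Cldn4 shared an identical run of 35 bases, and no other pair shared more than 20. Only a read lying wholly within such a run could not be given to 1 gene. Whether any reads were that short was not examined. Over whole transcripts the GC content was 40.6% for Cldn8 and 42.0% for Ocln, 46.8% for Tjp1, 50.1% for F11r, 54.4% for Cldn6, 56.8% for Cldn4, 57.0% for Cldn7 and 62.7% for Cldn3. Cldn8 lay at percentile 11.3 of the genes tested in the UB by GC content and Cldn3 at percentile 99.1.

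Totals ran from 4857053 to 7493144 counts in UB dko and 5141500 to 6310510 in UB control, and from 1443582 to 3438297 in MM dko and 5880919 to 6442484 in MM control. Some libraries stood apart from the controls by base composition. Log2 values of each library were taken relative to the control mean of its tissue, so the controls lie around 0 by construction. The median over the lowest of 5 GC bins minus that over the highest, here the GC trend, was -0.19, 2.27, -0.26 and 1.62 in UB dko libraries 1 to 4 and -0.28 to 0.46 in UB control. It was 3.23, 2.20 and 2.95 in MM dko libraries 1 to 3 and -0.12 to 0.06 in MM control. In UB dko library 3 the transcript Gm42418 took 32.5% of counts. The summed share of both mitochondrial rRNA genes was 1.40%, 6.40%, 7.02% and 3.23% of counts in UB dko libraries 1 to 4 and 1.05% to 1.38% in UB control, and 15.9%, 14.8% and 11% in MM dko libraries 1 to 3 and 1.73% to 2.27% in MM control. Their part in the results was not tested. The library titles carry a number of unstated meaning that UB dko 1 and 2, UB controls 2 to 4, MM dko 1 and 2 and MM controls 1 and 2 share within each group and that no dko library shares with a control, so any grouping it stands for cannot be told apart from genotype. The targeted Map2k1 (Mek1) was not lower in either tissue. It was called higher in MM dko (log2FC 0.70, adjusted p = 0.0466 in edgeR) and was not called in the UB (log2FC 0.37, adjusted p = 0.420). The deleted Map2k2 (Mek2) was lower in MM dko (log2FC -3.86, adjusted p = 1.51e-06 in edgeR), with 11.4 to 24.7 normalized counts in MM dko and 211 to 279 in MM control. In the UB it was not called (log2FC -0.70, adjusted p = 0.487): it had 282, 43.6, 302 and 65.8 in UB dko libraries 1 to 4 and 199.7 to 400.0 in UB control. The libraries labelled UB dko 1 and 3 therefore went against their label on this gene. Low Map2k2 was seen only in libraries with the GC trend, namely UB dko 2 and 4 and all MM dko. On Ret, Gfra1 and Wnt11 all UB dko libraries lay below every UB control, as did 7.06% of the genes tested. The study lists these genes as lowered in UB dko from these same libraries, so they are no independent check of the labels. Other UB markers were mixed in UB dko libraries 1 and 3. Calb1 had 3973 and 2636 against 6972 to 8906 in UB control, Hoxb7 536 and 403 against 478 to 561, and Gata3 2699 and 3978 against 2205 to 2883. Ret had 796 and 453 normalized counts in UB dko libraries 1 and 3, against 2052 to 2235 in UB control. The cause was not tested. UB dko below means the libraries so labelled. Each UB result is also given from libraries 1 and 3 and from libraries 2 and 4 apart where it rests on them. The 10 markers of UB epithelium were all detected in each UB library, with summed levels of 12699 to 16690 normalized counts in UB dko and 20125 to 20983 in UB control (2 of 10 lower, 0 higher), and the nephron progenitor markers summed to 8917 to 11206 in MM dko and 10123 to 11094 in MM control.

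Cldn8 was the member that changed in the ureteric bud. The gene (ENSMUSG00000050520) is a single exon on the minus strand of chromosome 16, from 88560828 to 88563183 of GRCm38. It had 2567, 6584, 2679 and 5858 normalized counts in UB dko libraries 1 to 4, against 1468, 1314, 1259 and 1284 in UB control libraries 1 to 4, where normalized counts are scaled by TMM to the mean library of the tissue. Every UB dko library lay above every UB control library, as was the case for 8.19% of the genes tested (7.06% lay wholly below and 15.2% did not overlap in either direction), and libraries 2 and 4 lay far above libraries 1 and 3. The means were 4422 ± 2099 in UB dko and 1331 ± 93.9 in UB control (SD, n = 4 each), a 3.32-fold difference (log2FC 1.73, SE 0.30, 95% interval 1.07 to 2.39, adjusted p = 0.0135 in edgeR's quasi-likelihood test over all genes). Of the 8 members that could be tested in the UB, 1 was called higher and 0 lower (2 higher and 0 lower at an unadjusted p under 0.05, 0 lower in DESeq2 and 3 lower with voom), where 3.93% of the 13425 genes tested were called, 2.70% higher and 1.24% lower.

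The size of the Cldn8 difference rested on UB dko libraries 2 and 4, which carried the GC trend. From the libraries labelled UB dko 1 and 3 alone, which had no such trend against the controls, Cldn8 was higher than in control by 0.94 on the log2 scale (SE 0.13, adjusted p = 0.00110). From libraries 2 and 4 alone it was higher by 2.22 (SE 0.13, adjusted p = 3.50e-09). When GC content and length were modelled as offsets in each library, the values were 3051, 3805, 3308 and 4250.4 in UB dko and 1449.6, 1427, 1447 and 1446 in UB control (log2FC 1.32, SE 0.11, adjusted p = 2.02e-05). The call was lost when UB control library 2, 3 or 4 was left out (log2FC 1.72, 1.70 and 1.71, adjusted p = 0.0717, 0.0723 and 0.0660) and with scaling to library size only (log2FC 1.41, adjusted p = 0.0534), a scaling that moved the median of all genes to -0.28, against 0.06 with TMM.

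**Figure D1:**
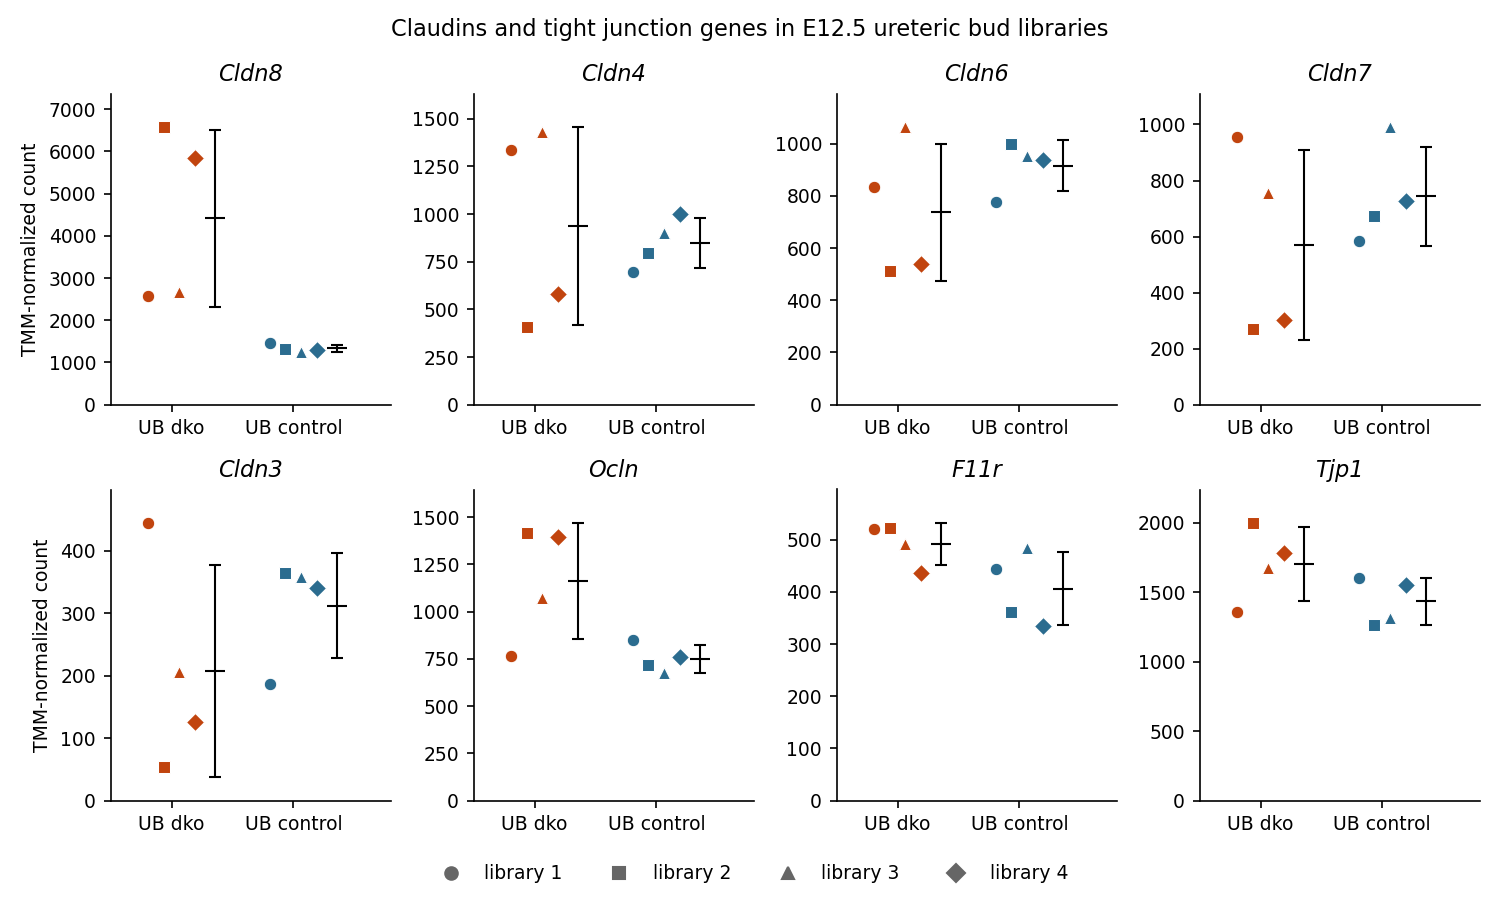
TMM-normalized counts of 8 members in each E12.5 ureteric bud library, UB dko in orange and UB control in blue, with the mean and SD (n = 4) beside the points and a marker shape for each library number. For Cldn8 all UB dko libraries, at 2567 to 6584, lie above the UB control libraries, at 1259 to 1468, while for Cldn3, Cldn4, Cldn6 and Cldn7 UB dko libraries 2 and 4 lie below libraries 1 and 3.

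The other claudin members tested in the ureteric bud did not pass the test. Cldn4 (ENSMUSG00000047501, chromosome 5, 134945119 to 134946934, minus strand), the partner of Cldn8, split the UB dko libraries: it had 1334, 409.5, 1431 and 580.5 normalized counts in UB dko libraries 1 to 4, against 695, 794, 901 and 997 in UB control. Libraries 1 and 3 lay above all controls and libraries 2 and 4 below all controls, so the means of 939 ± 519 in UB dko and 847 ± 131 in UB control differed by less than their spread (log2FC 0.15, SE 0.35, adjusted p = 0.845). With the libraries labelled UB dko 1 and 3 alone Cldn4 was called higher (log2FC 0.67, SE 0.16, adjusted p = 0.0226), and with the offsets it was not (log2FC 0.42, SE 0.15, adjusted p = 0.0807).

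Cldn6 (ENSMUSG00000023906, chromosome 17, 23679249 to 23682446, plus strand) is a claudin of embryonic epithelia. Its normalized counts were 835, 513, 1065 and 540.0 in UB dko and 778, 998, 954 and 937 in UB control (log2FC -0.31, SE 0.24, adjusted p = 0.499). Cldn7 (ENSMUSG00000018569, chromosome 11, 69964779 to 69967885, plus strand), which in the adult lies in the distal nephron and collecting duct, had 955, 269, 754 and 303 in UB dko and 582, 672, 992 and 728 in UB control (log2FC -0.38, SE 0.37, adjusted p = 0.603). In both genes UB dko libraries 2 and 4 were the lowest of all 8, and libraries 1 and 3 lay within the control range or above it. Libraries 2 and 4 were also the lowest for Cldn3 (ENSMUSG00000070473, chromosome 5, 134986214 to 134987472, plus strand), a sealing claudin, with 445, 53.7, 206 and 127 in UB dko and 186, 364, 359 and 341 in UB control (log2FC -0.58, SE 0.49, adjusted p = 0.540). Of its exon bases 40 (3.18%) overlap the antisense gene Wbscr25, so reads there could belong to either gene if strand was not used in counting. With the libraries labelled UB dko 1 and 3 alone the estimates were 0.027 for Cldn3, 0.013 for Cldn6 and 0.16 for Cldn7 (adjusted p = 0.972, 0.974 and 0.665), so the direction of all 3 depended on libraries 2 and 4. From libraries 2 and 4 alone, 4 members were called lower, at -1.76 for Cldn3, -0.77 for Cldn4, -0.80 for Cldn6 and -1.38 for Cldn7 (highest adjusted p = 0.00286), and 3 higher, namely Cldn8, Ocln (0.90) and Tjp1 (0.39, adjusted p = 0.0355). Cldn10 (ENSMUSG00000022132, chromosome 14, 118787908 to 118875489, plus strand), whose isoforms form cation or anion pores in nephron tubules, had 0 counts in every UB library. A count of 0 allows up to 0.118 CPM over the 25331172 counts of UB dko and 0.128 CPM over the 23385462 counts of UB control, for counting error only.

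Per length, the make-up of the claudin members in the bud fell into 2 patterns among the UB dko libraries, which divided as the GC trend did. RPKM values divide by exon length and were not corrected for GC content. Over the claudin members they summed to 494, 545, 483 and 528 in UB dko libraries 1 to 4 and to 298, 347, 374 and 359 in UB control, without overlap. Cldn8 made up 34.6%, 79.9%, 36.7% and 73.7% of the sum in UB dko and 32.7%, 25.2%, 22.5% and 23.9% in UB control. Without Cldn8 the sum was 324, 109.6, 306 and 139 in UB dko and 201, 259, 290.2 and 274 in UB control, which overlap. With offsets for GC content and length, Cldn4 had 761 and 868 in UB dko libraries 2 and 4, against 637 to 818 in UB control. Cldn6 had 809 and 718 against 755 to 840, Cldn7 516 and 460 against 528 to 722, and Cldn3 151 and 252 against 193 to 247. Shares of the sum were not computed with the offsets. Library 1 of UB dko and library 1 of UB control thus had nearly the same share of Cldn8, although all of its claudins but Cldn6 stood at a higher level in the UB dko library by more than 1.5 times.

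**Figure D2:**
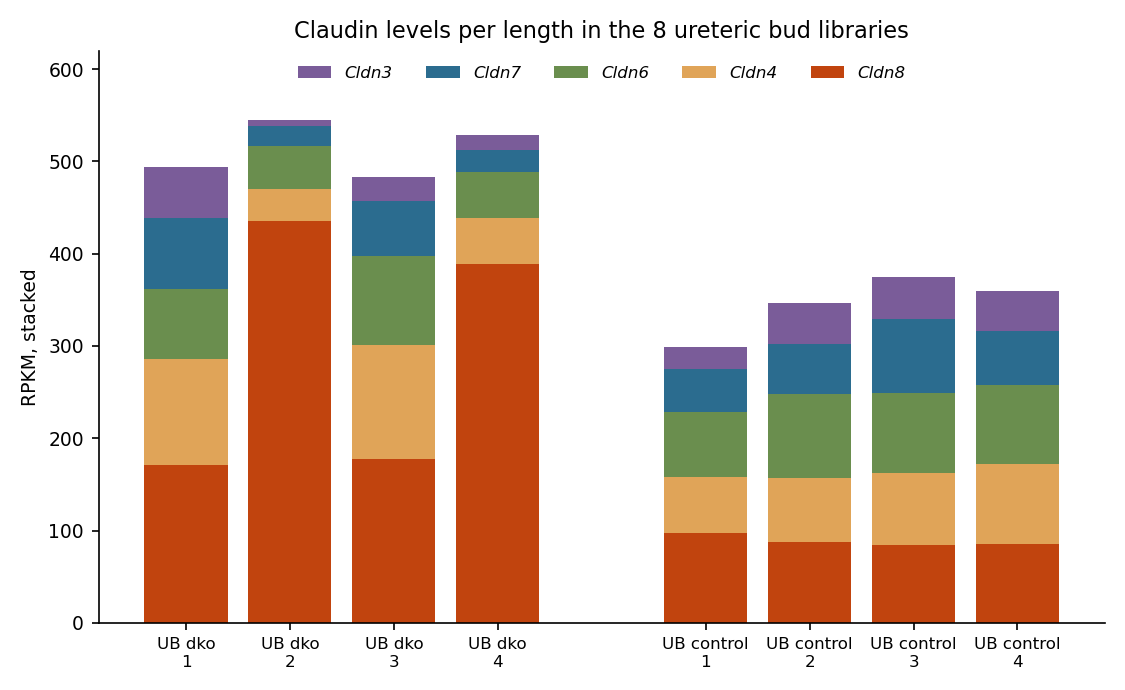
RPKM of Cldn8, Cldn4, Cldn6, Cldn7 and Cldn3, not corrected for GC content, stacked for each of the 4 UB dko and 4 UB control libraries. The sums reach 483 to 545 in UB dko and 298 to 374 in UB control, and in UB dko libraries 2 and 4 Cldn8 fills 79.9% and 73.7% of the bar.

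Occludin and F11r, the other membrane proteins among the members, were not called in the ureteric bud. Ocln (ENSMUSG00000021638, chromosome 13, 100496507 to 100552718, minus strand) had 768, 1416, 1070.4 and 1396 normalized counts in UB dko and 848, 719.9, 673 and 762 in UB control. UB dko libraries 2, 3 and 4 lay above all controls and library 1 within them, and the means were 1163 ± 307 in UB dko and 751 ± 74.3 in UB control (log2FC 0.63, SE 0.22, adjusted p = 0.122). Ocln was called when UB dko library 1 was left out (log2FC 0.78, adjusted p = 0.0253), and its estimate was 0.27 with the offsets and 0.25 with the libraries labelled UB dko 1 and 3 alone. F11r (ENSMUSG00000038235, chromosome 1, 171437535 to 171464603, plus strand), an immunoglobulin-type adhesion protein, had 519.6, 521, 492 and 436 in UB dko and 444, 362, 484 and 334 in UB control. Of the 4 UB dko libraries, 3 stood above every control by little (log2FC 0.28, SE 0.19, adjusted p = 0.445).

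Tjp1 (ENSMUSG00000030516, chromosome 7, 65296165 to 65527781, minus strand), the scaffold, had 1359.8, 1998, 1672 and 1783 normalized counts in UB dko and 1603, 1266, 1315 and 1550.5 in UB control. The groups overlapped, and the log2FC was 0.25 (SE 0.18, 95% interval -0.15 to 0.64, adjusted p = 0.465). In the ureteric bud 7 of the 8 tested members were thus not called, and 1, Ocln, had an unadjusted p under 0.05 besides Cldn8.

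**Figure D3:**
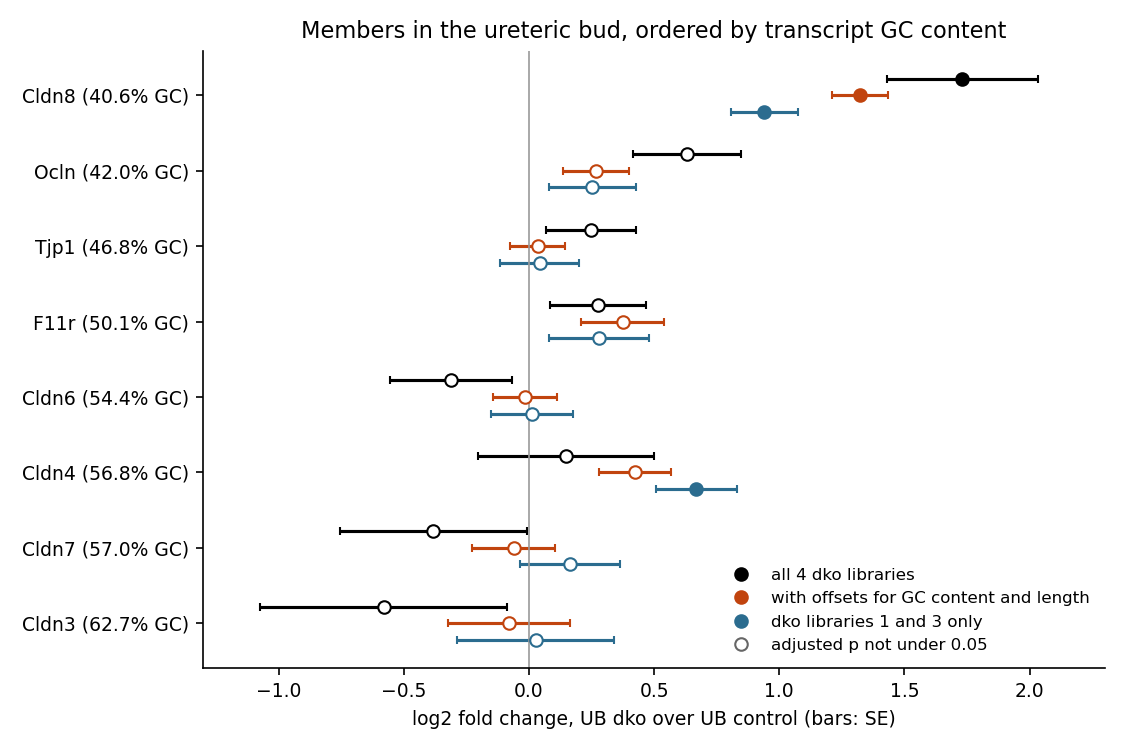
Log2 fold changes of UB dko over UB control with their SE for 8 members, ordered by transcript GC content from Cldn8 (40.6%) to Cldn3 (62.7%), under 3 fits shown by colour, with filled points where the adjusted p is under 0.05. With all 4 UB dko libraries the estimates run from 1.73 for Cldn8 to -0.58 for Cldn3, and Cldn8 is filled in all 3 fits.

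Across the 8 UB libraries the members moved in opposite senses. The Pearson correlation of log2 values with those of Cldn8 was 0.94 for Ocln, 0.78 for Tjp1 and 0.52 for F11r, whose transcripts have 42.0% to 50.1% GC, and -0.50 for Cldn4, -0.80 for Cldn7, -0.80 for Cldn3 and -0.83 for Cldn6, whose transcripts have 54.4% to 62.7%. These values rest on 8 libraries that share the GC trend of UB dko libraries 2 and 4 and are given as a description. The 5 genes most like Cldn8 by this measure, among 7560 genes with a mean of at least 100 normalized counts, were the receptor tyrosine kinase Erbb4, the cell-cycle repressor Rb1 and the lysosomal membrane protein Lamp2, and Rbms1 and Pnisr, which encode RNA-binding proteins, at 0.99 each. Their transcripts have 38.7% to 43.9% GC, close to the 40.6% of Cldn8, and their log2FC ran from 0.59 for Pnisr to 2.40 for Erbb4.

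In the metanephric mesenchyme Tjp1 and F11r were the members with enough counts to test. Tjp1 had 1095, 905 and 1102 normalized counts in MM dko libraries 1 to 3, against 646, 664 and 762 in MM control. The groups did not overlap, and MM dko lay wholly above MM control in 27.6% of all genes tested in this tissue, wholly below in 32.8% and without overlap in 60.5%. The means were 1034 ± 112 in MM dko and 690.4 ± 62.7 in MM control (SD, n = 3 each), a 1.50-fold difference (log2FC 0.59, SE 0.16, adjusted p = 0.00653 in edgeR). So 1 of 2 tested members was called higher and 0 lower, where 52.9% of the 12431 genes tested were called, 25.0% higher and 27.9% lower. With offsets for GC content and length the values were 781, 716 and 804 in MM dko and 627, 637 and 692 in MM control and the call was lost (log2FC 0.24, SE 0.13, adjusted p = 0.206), as it was with library size only (log2FC 0.20, adjusted p = 0.281). That scaling moved the median of all genes to -0.44, against -0.05 with TMM.

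F11r had 60.0, 141 and 47.5 normalized counts in MM dko and 137, 110.3 and 176 in MM control. MM dko libraries 1 and 3 lay below all controls, whereas library 2, the shallowest with 40 F11r counts, lay among them. The means of 83.0 ± 51.0 in MM dko and 141 ± 33.0 in MM control did not pass the test (log2FC -0.85, SE 0.38, adjusted p = 0.0711). Without MM dko library 2 F11r was called lower (log2FC -1.38, SE 0.32, adjusted p = 0.00383). In bulk libraries such as these, fewer cells of a type and less RNA per cell cannot be told apart.

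**Figure D4:**
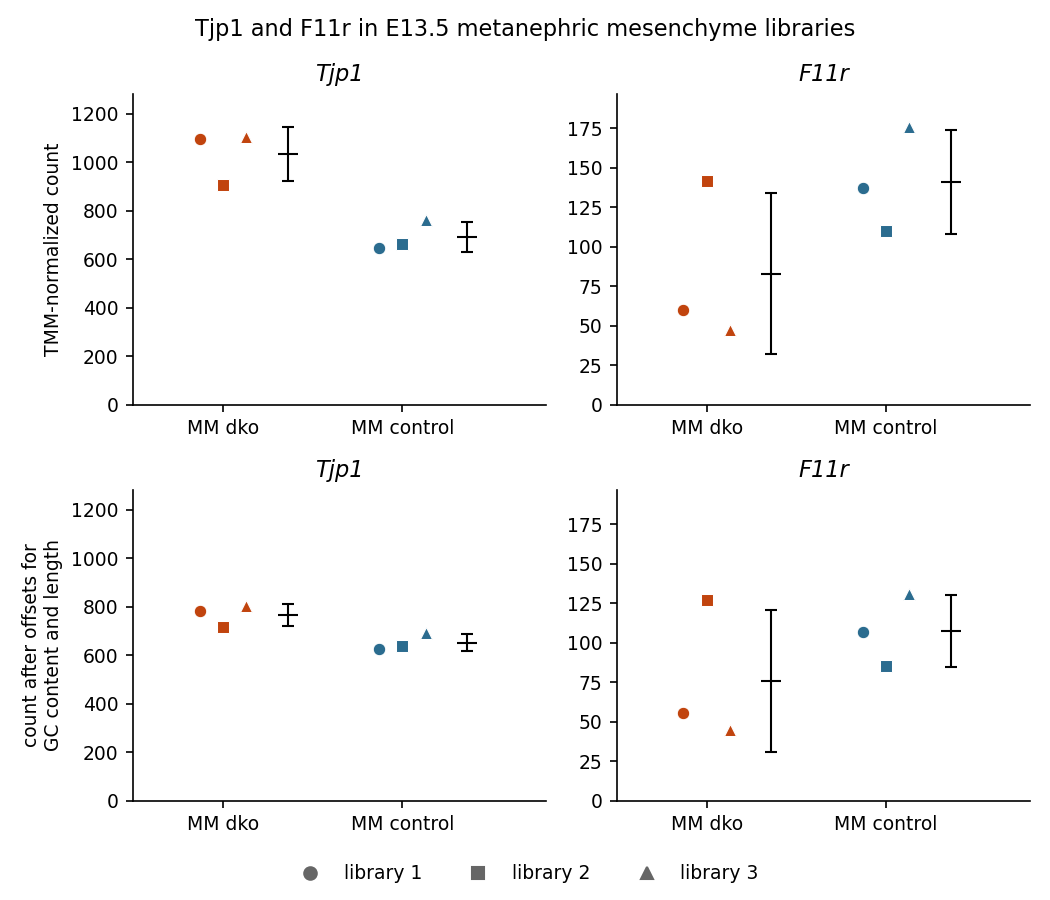
Tjp1 and F11r in the E13.5 metanephric mesenchyme libraries, MM dko in orange and MM control in blue, as TMM-normalized counts (top) and after offsets for GC content and length (bottom), with mean and SD (n = 3). Tjp1 lies at 905 to 1102 in MM dko and 646 to 762 in MM control in the top row and at 716 to 804 in MM dko and 627 to 692 in MM control in the bottom row.

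The other 7 members were close to absent from the nephron progenitors, with at most 23 counts in a library. Cldn8 had 5, 16 and 0 counts in MM dko libraries 1 to 3 and 0, 1 and 22 in MM control, and Ocln 2, 7 and 1 in MM dko and 0, 1 and 23 in MM control. Cldn6 had 1, 0 and 1 counts in MM dko and 13, 8 and 12 in MM control, Cldn7 had 0, 1 and 0 in MM dko and 4, 1 and 9 in MM control, and Cldn10 had 1, 0 and 4 in MM dko and 0, 3 and 6 in MM control. Cldn3 and Cldn4 had 0 counts in MM dko, where 3 counts over the 7948360 of the group set a limit of 0.377 CPM, and 3 and 11 counts over all MM control libraries. Most counts of these 7 genes came from few libraries: MM control library 3 held 84 of them, against 17 and 16 in MM control libraries 1 and 2, and MM dko libraries 1 to 3 held 9, 24 and 6. MM control library 3 also had 33 counts of the epithelial keratin Krt8, against 3 and 2 in the other MM controls. Markers of UB epithelium went both ways in it. Ret, the receptor of ureteric bud tips, had 1 count against 6 and 2, and Hoxb7 and Wnt11 were also lowest there. Calb1 had 23 counts against 9 and 15, and Gata3, Tfap2b and Gfra1 were also highest there. Summed markers of UB epithelium were 533 to 742 normalized counts in MM dko and 931, 1002 and 1266 in MM control libraries 1 to 3, with 1 to 3 of the 10 markers at 0. Stromal markers were 1622 to 2191 in MM dko and 833 to 1122 in MM control. Their part in the values of the members was not tested.

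Set against the MM controls, the UB controls had far more RNA of the tested claudin members and Ocln. In RPKM the UB control levels were 88.8 ± 6.08 for Cldn8, 83.7 ± 8.89 for Cldn6, 73.3 ± 11.5 for Cldn4, 60.0 ± 14.3 for Cldn7, 39.0 ± 10.6 for Cldn3, 28.8 ± 3.35 for Tjp1, 27.9 ± 2.72 for Ocln and 24.0 ± 4.11 for F11r (SD, n = 4). In this order the libraries of Cldn7 and Cldn3 did not overlap, and every other pair of neighbours did. The MM control levels were at most 1.37 RPKM for any claudin member or Ocln in any library, whereas Tjp1 had 20.1 ± 2.01 (SD, n = 3) and F11r at least 9.35. Of the 8 members tested, 7 were called higher in UB control than in MM control and 0 lower, where 19.1% of the 15225 genes tested were called, 10.7% higher and 8.37% lower. The log2 fold changes were 8.15 for Cldn3, 7.86 for Cldn4, 7.48 for Cldn8, 7.33 for Cldn7, 6.60 for Ocln and 6.42 for Cldn6 (SE 0.35 to 1.03, adjusted p = 1.25e-10 to 0.000188), and 0.99 for F11r (SE 0.29, adjusted p = 0.0178).

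The Cldn3 ratio rests on 3 counts in MM control and came to 331, with a 95% counting interval of 113 to 1606. Without MM control library 3, which held all 11 Cldn4, 22 of 23 Cldn8 and 23 of 24 Ocln counts, Cldn4 had 0 MM control counts and Cldn8 and Ocln 1 each, so that their fitted values, such as 10.2 for Ocln, depend on the prior count and are no bounds. F11r lost its call without UB control library 3 or MM control library 1 or 2 (adjusted p = 0.0567, 0.0718 and 0.108). Tjp1 was the member not called (log2FC 0.52, SE 0.18, adjusted p = 0.0506). Its UB control libraries all lay above its MM control libraries, as did those of every other tested member. The share over all genes was not computed, so this separation is not shown to be particular to the members. Tjp1 was called with the offsets (log2FC 0.58, adjusted p = 0.000760). The tissue cannot be told apart here from the stage and the Cre line, which differ between the control groups, and UB controls 1, 3 and 4 also differed from the MM controls in Mek2 genotype.

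**Figure D5:**
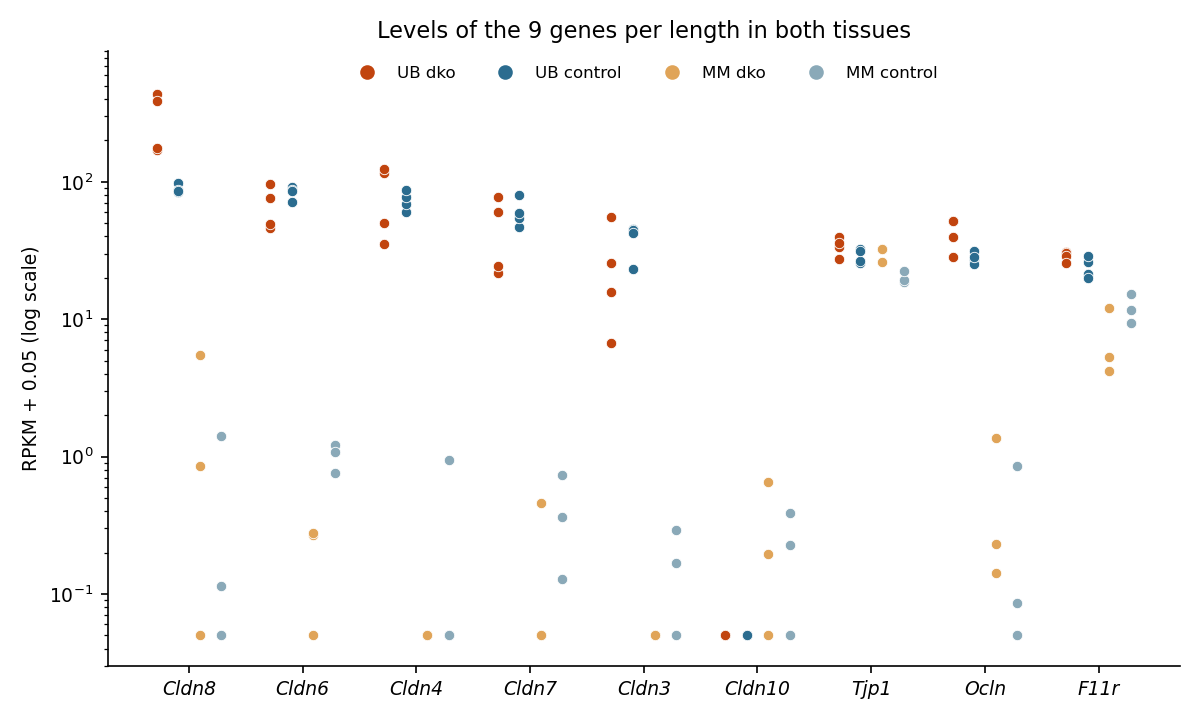
RPKM plus 0.05 on a log axis for the 9 members, each point a library, in UB dko, UB control, MM dko and MM control. The claudin members and Ocln stand at 6.64 to 435 RPKM in the ureteric bud, apart from Cldn10 at 0, and at 0 to 5.43 in the mesenchyme, while Tjp1 and F11r stand at 4.12 to 39.8 in all groups.

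Of the 8 members tested, 0 were called in edgeR's interaction test of whether the dko effect differed between tissues, and 0 in DESeq2, with 2 at an unadjusted p under 0.05 in edgeR, where 6.14% of the 15225 genes were called, 4.33% higher and 1.81% lower. For Tjp1 the interaction was -0.36 (SE 0.26, 95% interval -0.90 to 0.17, adjusted p = 0.379). For F11r it was 1.09 (SE 0.41, adjusted p = 0.107), with an estimate above 0 in the UB and below 0 in the MM, and without MM dko library 2 it was called (1.63, SE 0.36, adjusted p = 0.0258). For the tested claudin members and Ocln the near absence of counts in the mesenchyme left SEs of 0.78 to 3.42, so that a Cldn8 difference between tissues was not detectable at this depth (0.06, 95% interval -4.34 to 4.47).

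Around the members, 5 lists held other genes of tight junctions and of epithelial adhesion, and epithelial regulators. Earlier results of these data were known when the lists were chosen. The study itself lists Tmprss2 and Elf5 as raised in UB dko, so the share called in the lists is not independent of these data. Of their 94 genes tested in the ureteric bud, 7 (7.45%) were higher in UB dko and 0 lower in edgeR, where 2.70% of all genes tested were called higher and 1.24% lower. At an unadjusted p under 0.05 edgeR gave 24 higher and 4 lower. At an adjusted p under 0.05 DESeq2 gave 10 higher and 0 lower, and voom 24 higher and 14 lower. Of 30 plaque and polarity genes 2 were higher. Magi3, a scaffold of the membrane-associated guanylate kinase family, had 1460, 1827, 1709 and 1567 normalized counts in UB dko and 638, 554, 457 and 620.4 in UB control (log2FC 1.53, SE 0.18, adjusted p = 0.00289). Its 4 UB dko libraries lay close together and above all controls. The other was the polarity GTPase Cdc42 (log2FC 0.76, SE 0.17, adjusted p = 0.0284).

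Of 25 adherens and epithelial adhesion genes the desmosomal cadherin Dsc2 was called (log2FC 1.50, SE 0.27, adjusted p = 0.0158), and the classical cadherin of epithelia, Cdh1, was not, although its UB dko libraries lay above all controls (log2FC 0.52, SE 0.17, adjusted p = 0.107). Of 24 epithelial regulators tested 4 were higher: the membrane protease Tmprss2 (log2FC 1.25, SE 0.21, adjusted p = 0.0124) and the ETS-family transcription factor Elf5 (log2FC 1.70, SE 0.31, adjusted p = 0.0165), together with Klf5 (1.33) and Ehf (1.62), which were named after their values were seen. Of 5 other claudins and 10 other tight junction membrane proteins tested 0 were called (lowest adjusted p = 0.264 and 0.112), with 0 and 2 at an unadjusted p under 0.05. The median log2FC was 0.44 for the other claudins, 0.12 for the plaque, 0.60 for the membrane proteins, 0.28 for adhesion and 0.30 for the regulators, against 0.06 over all genes tested. All 7 called genes were also called, in the same direction, with the offsets, with the libraries labelled UB dko 1 and 3 alone and with libraries 2 and 4 alone. Both subsets are part of the libraries that gave the calls and share their controls. With library size only and with a block for replicate number, Magi3 alone kept its call (adjusted p = 0.0405 and 0.0268 in edgeR). The transcripts of all 7 have 42.4% to 49.5% GC. Markers of mature collecting duct cells summed to 619 to 1151 normalized counts in UB dko and 267 to 435 in UB control, with 2 or 3 of 10 at 0 in UB dko and 2 to 4 in UB control, and 1 of 6 tested was higher. Their part in the Cldn8 difference was not tested.

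In the mesenchyme the same lists held more calls in both directions. Of 64 genes tested 11 (17.2%) were higher in MM dko and 18 (28.1%) lower, below and close to the 25.0% and 27.9% of all genes. The called genes divided by base composition without overlap: the 11 higher ones have transcripts of 37.3% to 47.9% GC and the 18 lower ones of 48.6% to 62.2%. With the offsets 3 of the 11 and 5 of the 18 were still called in the same direction, and 1, the kidney transcription factor Pax2, was called in the opposite one (log2FC -0.65 without and 1.35 with offsets, adjusted p = 0.00377 and 0.000331).

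By list, the plaque and polarity genes had 3 higher and 9 lower of 25 tested. The Crumbs-complex adaptors Lin7c (log2FC 1.52, SE 0.17, adjusted p = 9.90e-06) and Mpp5 (log2FC 1.48, SE 0.18, adjusted p = 2.55e-05) were the higher ones of smallest adjusted p, and with the offsets they came to -0.33 and 0.01. Sympk, a scaffold of the machinery that forms mRNA ends and is also found at tight junctions, was lower (log2FC -2.10, SE 0.21, adjusted p = 4.47e-06), as was Arhgef2 (log2FC -1.68, SE 0.19), and both were also called with the offsets (log2FC -0.96 and -0.92). The membrane proteins had 3 higher of 9 tested, led by the claudin-related Tmem47 (log2FC 2.32, SE 0.21, adjusted p = 2.41e-06, and 0.49 with the offsets) and Cldnd1 (log2FC 1.17, SE 0.18, and 0.66 with the offsets).

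Among the 4 other claudins tested Cldn9 was lower, with 14.6, 21.2 and 22.1 normalized counts in MM dko and 41.5, 49.4 and 46.1 in MM control (log2FC -1.25, SE 0.46, adjusted p = 0.0328), and with the offsets it was at 0.20. The adhesion genes had 2 higher and 5 lower of 14. The catenin Ctnnd1 (log2FC 1.73) and the adhesion receptor Nectin3 (log2FC 1.13) were higher, and its relatives Nectin2 (log2FC -2.32) and Nectin1 (log2FC -2.36) lower. Of these the first 3 were also called with the offsets and Nectin1 was not (adjusted p = 0.0991). The regulators had 3 higher and 3 lower of 12, among them the repressors of epithelial genes Zeb2 (log2FC 1.14) and Snai2 (log2FC 1.23), at -0.18 and 0.45 with the offsets. The GC trend, measured against the mean of the 3 MM controls, was present in each of the 3 MM dko libraries. The controls lie around 0 by construction, and trend and genotype cannot be told apart in this tissue.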

How the data were processed

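The authors combined both kidneys of an embryo, sorted GFP-positive cells, and made NuGen Ovation Solo libraries. Single-end reads went through Trimmomatic for trimming, STAR for alignment to GRCm38 and featureCounts for counting per gene. The deposited values are raw counts per Ensembl gene. The submitters' processing notes also name HISAT2, HTSeq and DESeq2 without roles, and whether counting used strand is not given in the sources used here.

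Genes were tested per tissue with edgeR 4.0.16 (R 4.3.3): filterByExpr (minimum count 10, minimum total 15), TMM scaling, robust quasi-likelihood F test, Benjamini-Hochberg adjustment over all genes tested, called at an adjusted p under 0.05. SE is the log2FC divided by the square root of F. One model of all 14 libraries gave the interaction and UB control over MM control. RPKM used union exon lengths of GENCODE M21. Offsets for GC content and length were natural splines of 4 degrees of freedom per library. Alternatives were DESeq2 1.42.0, limma 3.58.1 voom with quality weights, other scalings and filters, a replicate block, UB dko libraries 1 and 3 alone, each library left out and, chosen after seeing the data, UB dko libraries 2 and 4 alone.

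The members and the 5 lists of other genes were chosen with earlier results of these data known. By rule, all members were named and, from each list, up to 2 genes per direction with the smallest adjusted p. One gene that the rule would name is not reported here. Each library is 1 embryo by the study's methods, whose litters are not given in the sources used here, and p-values measure only the spread between these samples. Depth per library is given in the text, and intervals and limits for counts of 0 cover counting error only.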

Additional observations from a re-analysis of the deposited data

Results flagged for a closer look

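Cldn3 in UB control library 1 lay far from the other controls, with 186 normalized counts against 341 to 364 in the other 3. The gap made up 0.869 of the range of the group, above Dixon's 95% critical value for 4 samples. It was the 1 such case in 16 groups of 4 libraries checked, and chance flags about 1 in 20. UB control library 1 also had the highest GC difference of the UB controls (0.46). With offsets for GC content and length Cldn3 had 193 in it, against 230 to 247 in the other 3.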

How the results depend on the processing

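In the UB, 1 member was called higher and 0 lower. The number higher was 0 with library size only, 0 with the replicate block, 2 with voom, 2 with UB dko libraries 1 and 3 alone, 3 with libraries 2 and 4 alone and 0 to 2 with a library left out. The number lower was 3 with voom and 4 with libraries 2 and 4 alone, a setting chosen after seeing the data. With library size only the estimates turned to -0.23 for Cldn4, -0.11 for Tjp1 and -0.068 for F11r. Cldn4 also turned with voom (-0.43), with libraries 2 and 4 alone (-0.77) and with a library left out (-0.15 to 0.40). With libraries 1 and 3 alone Cldn3 turned to 0.027, Cldn6 to 0.013 and Cldn7 to 0.16. The 7 list genes higher in the UB became 1 with library size only, 20 with offsets for GC content and length, 11 with no filter, 24 with voom, 21 with libraries 1 and 3, 23 with libraries 2 and 4 and 1 to 11 with a library left out (1 without UB control library 2, 11 without UB dko library 1). The 0 list genes lower became 3 with offsets, 14 with voom, 1 with libraries 1 and 3, 21 with libraries 2 and 4 and 0 to 3 with a library left out.

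In the MM, the 1 member higher became 0 with library size only and 0 with offsets, and was 1 in each fit with a library left out. The 0 members lower became 1 with library size only, 1 with no filter, 1 with voom and 0 to 1 with a library left out. The 18 list genes lower became 7 with offsets and were 14 to 20 with a library left out. In the interaction, Cldn8 turned to -0.42 and Ocln to -0.26 in DESeq2, Cldn8 to -0.013 with RLE scaling, and with a library left out they ran from -3.49 to 1.98 and from -3.44 to 1.65. The number of members with an interaction was 0 to 1, and of members higher in UB control than MM control 6 to 8, with a library left out.

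Same-numbered libraries did not deviate together (r -0.28 to 0.12 in the UB and -0.06 to -0.02 in the MM), so no pairing by number was seen. The UB deviations include the GC trend of some UB dko libraries, and groups were small, so a pairing could be missed. With the replicate block, 0 members and 1 list gene were higher in the UB, Cldn8 was at 1.60 (adjusted p = 0.0512) and Cldn4 at -0.029. With the block and offsets, 15 list genes were higher and 3 lower in the UB, and 0 members were higher and 5 list genes lower in the MM.

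Over all genes, 362 were higher and 166 lower in UB dko. These became 58 and 220 with library size only, 880 and 525 in DESeq2, 668 and 659 with offsets, 54 and 13 with the block, 2438 and 2202 with voom, 601 and 567 with libraries 1 and 3, and 2921 and 2920 with libraries 2 and 4. In MM dko 3105 were higher and 3465 lower, against 1871 and 4701 with library size only and 934 and 2164 with offsets. The causes of these shifts were not tested. Depth limits the claudin members and Ocln in the MM, which had at most 23 counts in a library.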
